A study of Mus musculus with 4 samples.

Results

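Laminins and nidogens are structural proteins of the basement membrane, and integrins are the cell-surface receptors that bind to it and to other matrix. Their genes were followed in RNA sequencing of whole cochleae from postnatal day 10 mice of the C57BL/6 strain. Members were chosen by gene name, as every laminin alpha, beta or gamma chain, every integrin alpha or beta subunit and both nidogens listed, with integrin-binding proteins and Itgbl1 left out. This gave 40 of the 20777 genes in the tables, namely 11 laminins, 2 nidogens and 27 integrins, and all 40 had a value. The Zbtb20 KO group held 2 libraries (replicates 2 and 3) of genotype Zbtb20 F/F, and the WT group held 2 libraries (replicates 2 and 3) of genotype Zbtb20 +/+. Both groups carried a cre driver, named FoxG2-cre in the replicate 2 libraries and FoxG3-cre in the replicate 3 libraries, and whether these are different drivers or the same one numbered with the replicate is not clear from the labels. The labels do not say in which cells it acts, nor whether the libraries came from separate or pooled animals. The spread behind each p-value is therefore that of these libraries and may be technical. Zbtb20 is the gene of a transcription factor with zinc fingers.

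A laminin is a trimer of 1 alpha, 1 beta and 1 gamma chain, and trimers join into a sheet under epithelia and around capillaries, muscle fibres and Schwann cells. Nidogens bridge the laminin sheet to the collagen IV network. An integrin is a pair of 1 alpha and 1 beta subunit, and the pair decides the ligand: some bind laminins, some collagens, some the RGD motif of fibronectin, vitronectin or latent TGF-beta, and some other cells. In the cochlea, basement membranes lie under the sensory epithelium, around the capillaries of the stria vascularis and along the myelinated fibres of the spiral ganglion.

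Each level is an FPKM value, which counts fragments relative to transcript length and to the library's total, so that genes can be compared within a library. Depth was estimated at 18050000 to 19250000 fragments per library. Zbtb20 itself was at 7.35 and 7.41 FPKM in KO libraries, against 10.94 and 10.67 FPKM in WT libraries (log2 difference -0.49 ± 0.08 SE, adjusted p = 0.0394, limma). All 10 markers of cochlear epithelium and spiral ligament were above 0 in every library, and they summed to 6593.2 and 6590.0 FPKM in KO libraries, against 4568.5 and 4355.6 FPKM in WT libraries. That sum is mostly Otor, at 4648.79 and 4667.95 FPKM in KO libraries, against 2111.56 and 1916.48 FPKM in WT libraries: 3 of the 10 were called higher and 1, Coch, lower, and 7 had a negative log2 difference, among them the hair cell genes Myo7a, Pou4f3, Otof and Slc26a5, which were not called. Genes of Schwann cell myelin summed to 636.0 and 986.4 FPKM in KO libraries, against 7322.2 and 4146.3 FPKM in WT libraries, with 11 of 12 lower and called and none at 0 in any library. Skeletal muscle genes summed to 6.9 and 3.7 FPKM in KO libraries, against 597.2 and 3.2 FPKM in WT libraries, so WT replicate 2 stood apart. In that library all 16 muscle markers were above 0, while Myh4 and Myod1 were listed at 0 in the other 3, and 0 of 14 tested were called (limma, 0 at an unadjusted p under 0.05). Endothelial and mural genes summed to 476.7 and 508.4 FPKM in KO libraries, against 505.2 and 504.4 FPKM in WT libraries. In whole tissue, fewer cells of a type and less RNA per cell cannot be told apart.

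Of the 40 members, 35 had a mean of at least 0.5 FPKM and were tested. Lamc3, Itgb8 and Itga7 fell in the knockout, and Nid2 and Itgb5 rose. A call here is a Benjamini-Hochberg adjusted p under 0.05 (limma on log2(FPKM + 1), two-sided, over all genes tested). The 5 calls among 35 members stand beside 618 among all 13966 genes tested, or 4.43%. By direction, 2 of 35 members were called higher, where 2.38% of all genes were, and 3 lower, where 2.04% were. At an unadjusted p under 0.05 there were 16 members, 8 in each direction, where 22.0% of all genes reached it. Of the 13966 genes, 1997 did so with a higher and 1081 with a lower value in KO. In 24 of the 35 members both KO libraries lay beyond both WT libraries, as they did in 55.0% of all genes. The median log2 difference was -0.05 over the members and 0.06 over all genes, and the median size of the difference without its sign was 0.27 over the members and 0.14 over all genes. Median-of-ratios rescaling of the libraries changed the calls among all genes to 243 higher and 350 lower, in place of 333 and 285, and the call of Itgb5 was lost. No member was called with either KO library left out: without KO replicate 2 or without KO replicate 3, 0 members passed (lowest adjusted p 0.129 and 0.122), although 10 and 9 had an unadjusted p under 0.05, and 1 gene was called in the whole table.

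**Figure D1:**
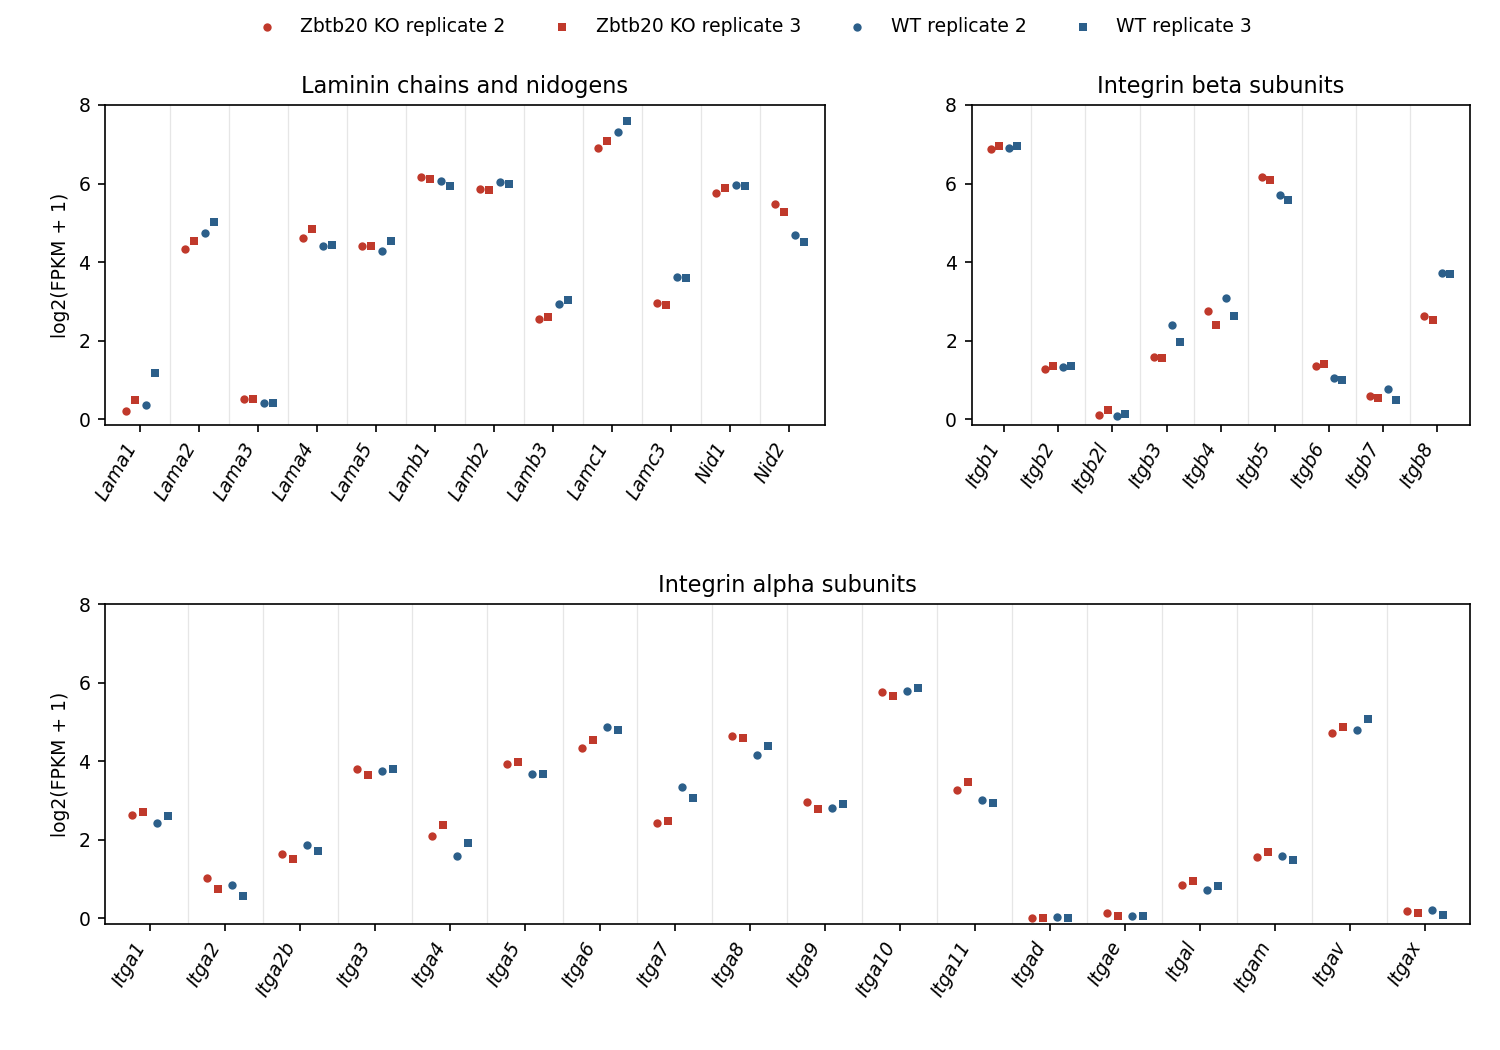
Level of 39 of the 40 members in each library, as log2(FPKM + 1), with KO libraries in red left of WT libraries in blue, and replicate 2 as circles and replicate 3 as squares. Lamc1 is the highest laminin chain in every library, Itgb1 the highest integrin, and both KO libraries lie below both WT libraries for Itgb8, Lamc3 and Itga7 and above them for Nid2 and Itgb5.

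**Figure D2:**
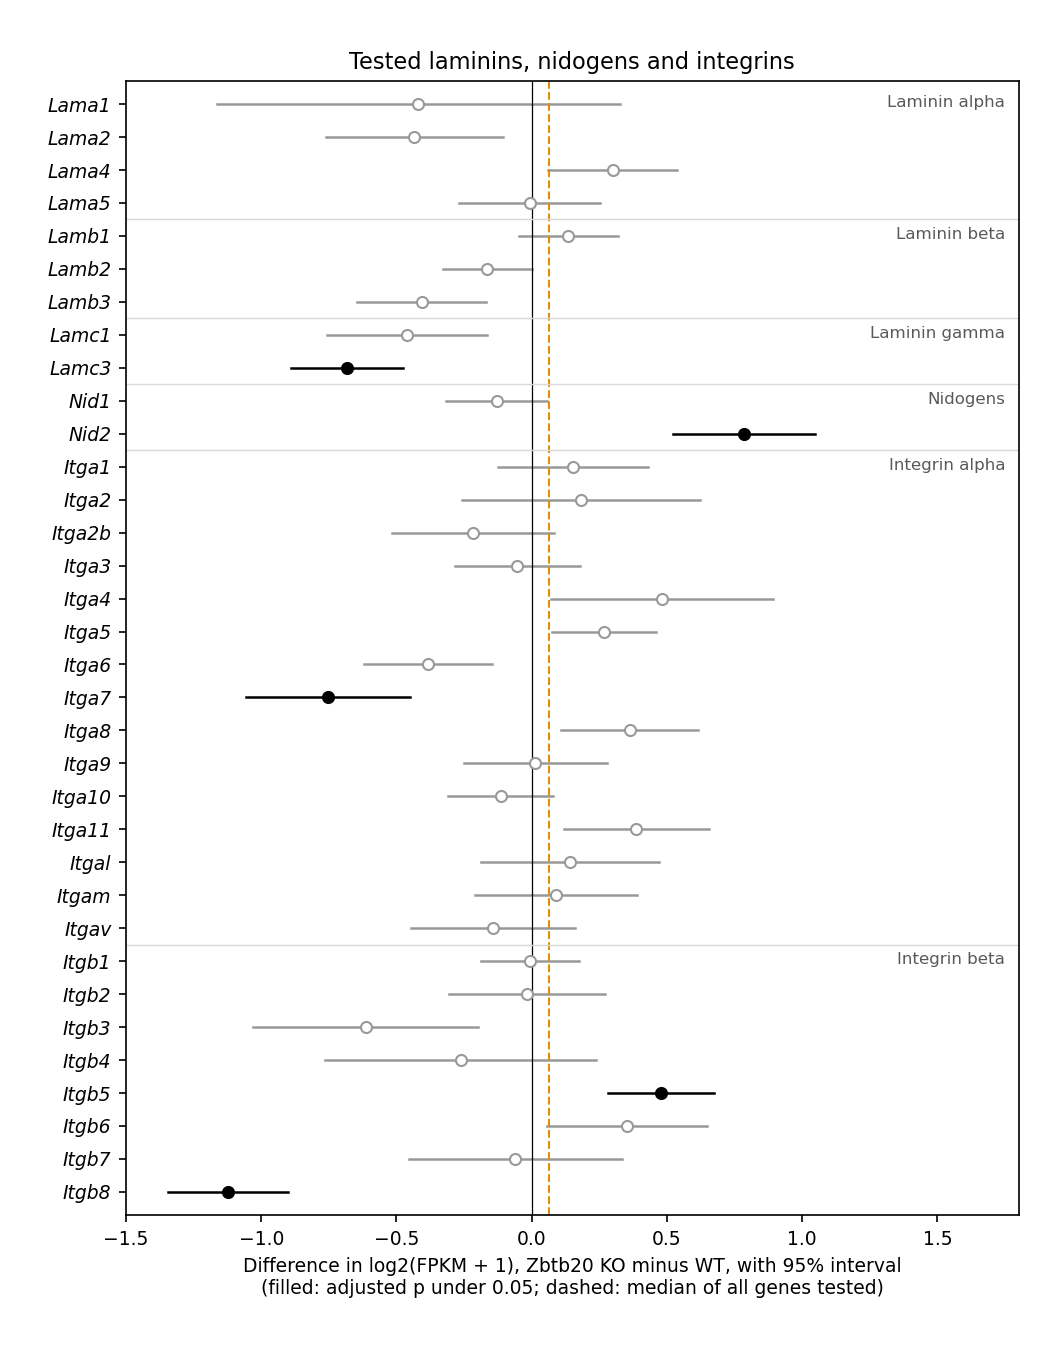
Difference in log2(FPKM + 1), KO minus WT, for 34 of the 35 tested members, with the 95% interval of the limma fit (n = 2 libraries per group). Filled black points are the 5 genes with an adjusted p under 0.05, and the dashed line is the median of all genes tested, 0.06.

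Among the gamma chains, Lamc3 fell, and Lamc1 was lower in both KO libraries without passing. Lamc3, which encodes a gamma chain found in fewer trimers than the common one, was at 6.76 and 6.46 FPKM in KO libraries, against 11.27 and 11.15 FPKM in WT libraries. The groups were apart, and the replicates of each genotype lay close together. The log2 difference was -0.68 ± 0.08 (SE, n = 2 per group, adjusted p = 0.0189, limma), and the WT mean was 1.70 times the KO mean. Lamc3 occupies 31887291 to 31946539 of chromosome 2, plus strand (GENCODE vM21, GRCm38), and 6.27% of its exon bases are shared with Gm13441 on the other strand, which the tables do not list. Its call was lost without WT replicate 2, although the log2 difference hardly changed there, at -0.68. The common gamma chain gene Lamc1 was at 118.64 and 134.6 FPKM in KO libraries, against 158.81 and 191.24 FPKM in WT libraries, a log2 difference of -0.46 ± 0.12 (adjusted p = 0.107, limma). Both KO values lay below both WT values, where 55.0% of all genes were without overlap in either direction. The WT values differed more from each other than the KO values did.

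No laminin beta chain was called (0 of 3 by limma, with 1, Lamb3, at an unadjusted p under 0.05). Lamb1, the beta chain of most laminins, was at 70.45 and 68.3 FPKM in KO libraries, against 65.61 and 60.59 FPKM in WT libraries. Lamb2, the beta chain of synaptic and kidney laminins, was at 57.44 and 56.2 FPKM in KO libraries, against 64.84 and 62.68 FPKM in WT libraries. These differences point opposite ways and are small, with 95% intervals of the log2 difference from -0.05 to 0.32 for Lamb1 and from -0.33 to 0.00 for Lamb2. The ratio of Lamb1 to Lamb2 was 1.23 and 1.22 in KO libraries, against 1.01 and 0.967 in WT libraries. Lamb3, the beta chain of the epithelial anchoring laminin, was at 4.9 and 5.05 FPKM in KO libraries, against 6.61 and 7.25 FPKM in WT libraries (log2 difference -0.41 ± 0.09, adjusted p = 0.0880, limma).

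No laminin alpha chain was called either (0 of 4 by limma, with Lama2 and Lama4 at an unadjusted p under 0.05). Lama2, the alpha chain of muscle and Schwann cell basement membranes, was at 19.22 and 22.34 FPKM in KO libraries, against 25.49 and 31.51 FPKM in WT libraries (log2 difference -0.43 ± 0.13, adjusted p = 0.143, limma). Lama4, the alpha chain best known from capillary walls, was at 23.61 and 27.49 FPKM in KO libraries, against 20.35 and 20.69 FPKM in WT libraries (log2 difference 0.30 ± 0.09, adjusted p = 0.158, limma). In both genes the groups did not overlap, as in 55.0% of all genes tested. Myelin genes moved the same way as Lama2, and muscle genes were high in WT replicate 2. The part of either in the Lama2 difference was not tested. Lama5, the alpha chain of mature epithelia and vessels, was at 20.25 and 20.05 FPKM in KO libraries, against 18.52 and 22.16 FPKM in WT libraries, and the 95% interval of its log2 difference ran from -0.27 to 0.25. As a share of all alpha chain FPKM, Lama2 made up 30.2% and 31.6% in KO libraries, against 39.2% and 41.5% in WT libraries. Lama4 made up 37.1% and 38.9% in KO libraries, against 31.3% and 27.3% in WT libraries, so the leading alpha chain was Lama4 in both KO libraries and Lama2 in both WT libraries. The ratio of Lama2 to Lama4 was 0.814 and 0.813 in KO libraries, against 1.25 and 1.52 in WT libraries. With 2 libraries against 2, an exact two-sided permutation test of such a ratio cannot give a p below 0.333, which is the value it gave. Lama1, the alpha chain of early embryonic membranes, was at 0.15 and 0.4 FPKM in KO libraries, against 0.28 and 1.25 FPKM in WT libraries, with overlapping groups and a log2 difference of -0.42 ± 0.29. Lama3, the alpha chain of the anchoring laminin, was at 0.42 and 0.42 FPKM in KO libraries, against 0.32 and 0.33 FPKM in WT libraries, below the level tested.

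**Figure D3:**
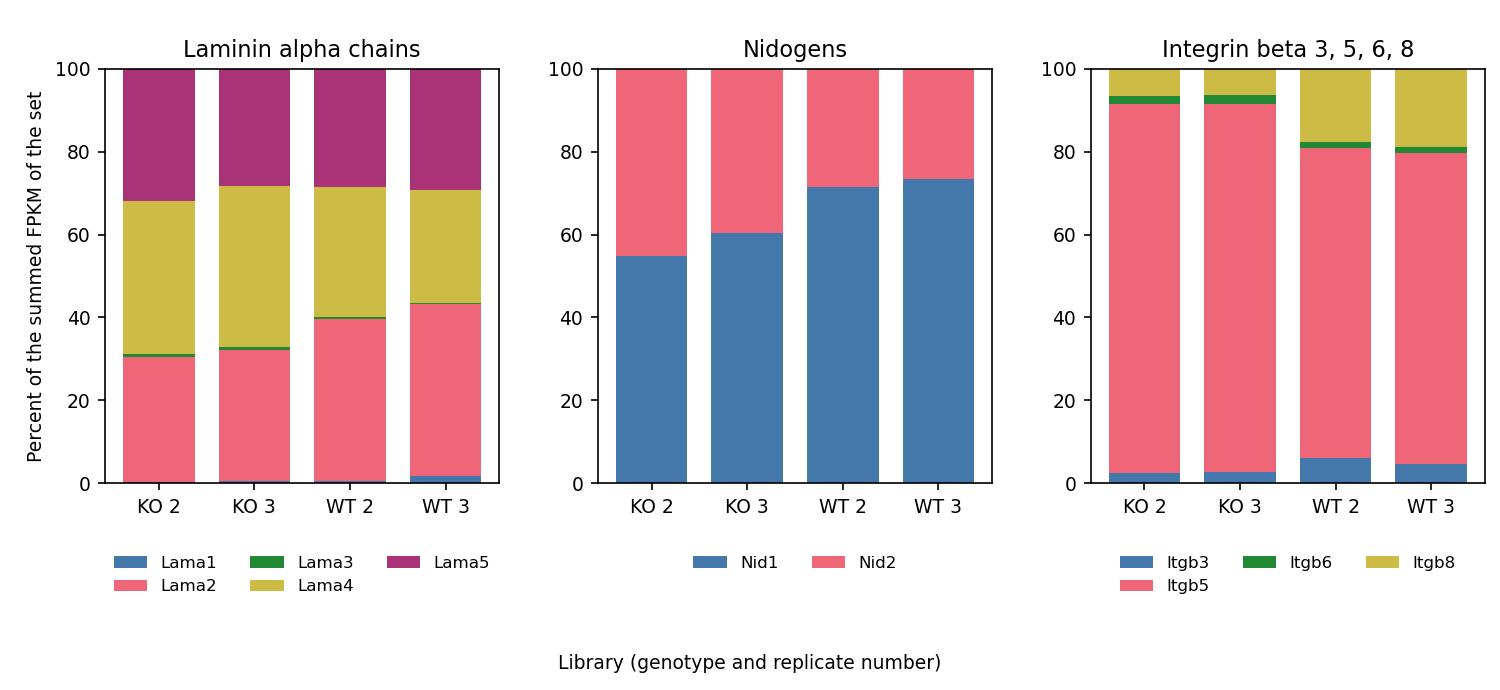
Share of each gene in the summed FPKM of its set, in percent, for the laminin alpha chains, the nidogens and the integrin beta 3, 5, 6 and 8 subunits, with 1 bar per library and KO bars left of WT bars. Nid2 holds 45.1% and 39.6% of nidogen FPKM in KO libraries, against 28.6% and 26.6% in WT libraries, and Itgb8 holds 6.5% and 6.32% of its set in KO libraries, against 17.6% and 18.8% in WT libraries.

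Nid2 rose, and Nid1 did not pass the test. Nid2, which encodes nidogen-2, was at 43.7 and 37.94 FPKM in KO libraries, against 24.66 and 21.85 FPKM in WT libraries. The lower KO value stood well above the higher WT value. The log2 difference was 0.78 ± 0.10 (SE, n = 2 per group, adjusted p = 0.0236, limma), with a KO mean 1.755 times the WT mean. Without WT replicate 3 the log2 difference was 0.70 (adjusted p = 0.0517), and with no low-value filter the adjusted p was 0.0614. Nid2 occupies 19751265 to 19811787 of chromosome 14, plus strand, and 8.45% of its exon bases are shared with Rtraf on the other strand, whose log2 difference was 0.20 ± 0.11 (adjusted p = 0.347, limma). Nid1, which encodes nidogen-1, was at 53.29 and 57.9 FPKM in KO libraries, against 61.58 and 60.18 FPKM in WT libraries (95% interval of the log2 difference -0.32 to 0.06). Nid1 was the higher nidogen in all 4 libraries. The ratio of Nid2 to Nid1 was 0.820 and 0.655 in KO libraries, against 0.401 and 0.363 in WT libraries. Nidogen FPKM in all summed to 96.99 and 95.84 in KO libraries, against 86.24 and 82.03 in WT libraries.

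Among the integrin beta subunits Itgb8 was called lower and Itgb5 higher. Both encode subunits that pair with the alpha v subunit: alpha v with beta 8 binds latent TGF-beta, and alpha v with beta 5 binds vitronectin. The 300 bases around the RefSeq start of each gene, from 250 before to 50 after it, are given. The choice fell on the beta genes that were called, in opposite directions. Capitals mark matches, on either strand, to the TATA box TATAAA or to the box named CCAAT by its letters. They also mark the GC box written GGGCGG (RefSeq, GRCm38.p6). The Itgb8 window is chr12:119238227-119238526 on the minus strand and the Itgb5 window chr16:33829415-33829714 on the plus strand.
Itgb8: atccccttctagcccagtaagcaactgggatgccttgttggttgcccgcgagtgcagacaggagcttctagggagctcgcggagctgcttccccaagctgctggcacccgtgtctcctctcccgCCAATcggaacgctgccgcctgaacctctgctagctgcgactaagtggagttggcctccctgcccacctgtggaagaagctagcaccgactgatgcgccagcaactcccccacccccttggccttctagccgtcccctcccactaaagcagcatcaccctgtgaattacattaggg
Itgb5: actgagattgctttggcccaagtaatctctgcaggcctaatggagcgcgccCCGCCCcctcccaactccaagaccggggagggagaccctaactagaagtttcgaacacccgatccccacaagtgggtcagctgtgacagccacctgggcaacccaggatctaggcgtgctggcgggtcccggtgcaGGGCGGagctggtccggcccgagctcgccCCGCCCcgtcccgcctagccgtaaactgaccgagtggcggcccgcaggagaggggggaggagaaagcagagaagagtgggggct
The Itgb8 window held 1 CCAAT and no other match, and the Itgb5 window held 3 GGGCGG matches, 1 as written and 2 as CCGCCC. Among all 32851 promoter windows of this length, CCAAT was found in 37.4%, GGGCGG in 35.7% and TATAAA in 13.6%. The table held 28 windows for 25 of the 40 members, of which 13 held GGGCGG, 5 CCAAT and 0 TATAAA. G and C made up 60.7% of the Itgb8 window and 65.7% of the Itgb5 window, against a median of 52.7% over all windows.

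Itgb8 was at 5.18 and 4.77 FPKM in KO libraries, against 12.15 and 11.85 FPKM in WT libraries. Both KO libraries were less than 0.5 of either WT library. It was the member with the largest difference in log2(FPKM + 1), and the 1 of 35 that differed by at least 1. That difference was -1.12 ± 0.09 (SE, n = 2 per group, adjusted p = 0.00752, limma), with a WT mean 2.41 times the KO mean. With 0.1 added in place of 1, Lama1, low and with overlapping groups, also differed by at least 1 (-1.02). In the other direction Itgb5 was at 70.98 and 67.2 FPKM in KO libraries, against 51.53 and 47.17 FPKM in WT libraries. Its log2 difference was 0.48 ± 0.08 (adjusted p = 0.03895, limma), with a KO mean 1.40 times the WT mean. This call was lost without WT replicate 2 (0.54, adjusted p = 0.0642), without WT replicate 3 (0.42, adjusted p = 0.0979), after median-of-ratios rescaling (0.40, adjusted p = 0.06905), without the filter on low values (adjusted p = 0.07225) and without the intensity trend (adjusted p = 0.0697). The call of Itgb8 was kept under each of these settings (adjusted p 0.00819 to 0.0332). The gene of Itgb8 spans 119158022 to 119238802 of chromosome 12 (minus strand) and that of Itgb5 33829665 to 33949338 of chromosome 16 (plus strand), so that the Itgb8 window lies inside the longer GENCODE span, and neither shares exon bases with another gene of GENCODE vM21.

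Their common partner Itgav, the alpha v gene, was at 25.29 and 28.16 FPKM in KO libraries, against 26.68 and 32.81 FPKM in WT libraries, with overlapping groups and a 95% interval of the log2 difference from -0.45 to 0.16. The ratio of Itgb8 to Itgav was 0.205 and 0.169 in KO libraries, against 0.455 and 0.361 in WT libraries. The ratio of Itgb5 to Itgav was 2.81 and 2.39 in KO libraries, against 1.93 and 1.44 in WT libraries. Set against each other, Itgb5 exceeded Itgb8 by 13.7 and 14.1 times in KO libraries, against 4.24 and 3.98 times in WT libraries. The 2 remaining alpha v partners of this kind did not pass. Itgb3, the partner of alpha v in osteoclasts and of alpha IIb in platelets, was at 1.99 and 1.92 FPKM in KO libraries, against 4.23 and 2.91 FPKM in WT libraries (log2 difference -0.61 ± 0.16, adjusted p = 0.117, limma). WT replicate 2 was highest for Itgb3, and without WT replicate 3 the gene was called (-0.82, adjusted p = 0.0419). Osteoclast genes were also highest in WT replicate 2, at 121.8 and 125.0 FPKM summed in KO libraries, against 201.9 and 129.1 FPKM in WT libraries, and 0 of 5 tested were called (limma, 0 at an unadjusted p under 0.05); their part in the Itgb3 values was not tested. Itgb6, an epithelial partner of alpha v, was at 1.54 and 1.63 FPKM in KO libraries, against 1.07 and 0.98 FPKM in WT libraries (log2 difference 0.35 ± 0.12, adjusted p = 0.174, limma). The 4 subunits summed to 79.69 and 75.52 FPKM in KO libraries, against 68.98 and 62.91 FPKM in WT libraries.

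Itgb1, the common beta subunit that pairs with laminin, collagen and fibronectin receptors alike, was the highest integrin and differed little between genotypes. It was at 116.4 and 124.21 FPKM in KO libraries, against 117.89 and 123.7 FPKM in WT libraries, and the 95% interval of its log2 difference ran from -0.19 to 0.18. Itgb4, the subunit of epithelial hemidesmosomes and of Schwann cells that pairs with Itga6, was at 5.77 and 4.29 FPKM in KO libraries, against 7.41 and 5.13 FPKM in WT libraries. Its groups overlapped, and in each genotype replicate 2 was the higher library. The leukocyte subunit gene Itgb2 was at 1.44 and 1.54 FPKM in KO libraries, against 1.49 and 1.55 FPKM in WT libraries (95% interval of the log2 difference -0.31 to 0.27). Itgb7, a subunit of gut-homing lymphocytes, was at 0.49 and 0.45 FPKM in KO libraries, against 0.69 and 0.39 FPKM in WT libraries, and Itgb2l, a gene related to Itgb2, did not exceed 0.17 FPKM.

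Of the laminin-binding alpha subunits, Itga7 fell, and Itga6 and Itga3 did not pass. Itga7, best known from skeletal muscle fibres and also made by Schwann cells, was at 4.36 and 4.56 FPKM in KO libraries, against 9.09 and 7.39 FPKM in WT libraries. The KO values lay close together, and the higher WT value was that of replicate 2. The log2 difference was -0.75 ± 0.12 (SE, n = 2 per group, adjusted p = 0.0371, limma; chromosome 10, 128933818 to 128958282, plus strand), and Mettl7b shares 0.111% of the exon bases on the other strand. Without WT replicate 2, the library with 597.2 FPKM of muscle genes, the log2 difference was -0.62 and the call was lost (adjusted p = 0.0806), as it was without the filter on low values (adjusted p = 0.0869). Myelin genes were higher in both WT libraries, and the part of muscle and myelin genes in the Itga7 result was not tested. Itga6, a laminin receptor of epithelia, neurons and glia, was at 19.23 and 22.18 FPKM in KO libraries, against 28.03 and 26.51 FPKM in WT libraries (log2 difference -0.38 ± 0.09, adjusted p = 0.0980, limma). Itga3, an epithelial laminin receptor, was at 12.96 and 11.47 FPKM in KO libraries, against 12.48 and 12.9 FPKM in WT libraries, with overlapping groups. The 3 laminin-binding subunits summed to 36.55 and 38.21 FPKM in KO libraries, against 49.6 and 46.8 FPKM in WT libraries, while the collagen-binding ones summed to 68.19 and 65.36 FPKM in KO libraries, against 66.26 and 69.3 FPKM in WT libraries.

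No collagen-binding alpha subunit was called (0 of 4 by limma, with 1, Itga11, at an unadjusted p under 0.05). Itga10, the collagen receptor of cartilage, was the highest integrin alpha gene in every library, at 53.46 and 49.14 FPKM in KO libraries, against 54.06 and 57.11 FPKM in WT libraries. A transcript model on the same strand, Gm42957, shares 33.5% of its exon bases. Itga11, a collagen receptor of fibroblasts, was at 8.56 and 10.04 FPKM in KO libraries, against 7.07 and 6.65 FPKM in WT libraries (log2 difference 0.39 ± 0.11, adjusted p = 0.121, limma). Itga1 and Itga2, collagen receptors of many cell types, had log2 differences of 0.15 ± 0.11 and 0.18 ± 0.17 and reached at most 5.5 FPKM and 1.03 FPKM.

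Among RGD-binding alpha subunits other than Itgav, Itga8 and Itga5 were higher in both KO libraries without passing. Itga8, which encodes a receptor for nephronectin known from hair cells and kidney, was at 24.01 and 23.21 FPKM in KO libraries, against 16.68 and 19.73 FPKM in WT libraries (log2 difference 0.36 ± 0.10, adjusted p = 0.122, limma). Itga5, the fibronectin receptor gene, was at 14.18 and 14.65 FPKM in KO libraries, against 11.79 and 11.82 FPKM in WT libraries (log2 difference 0.27 ± 0.08, adjusted p = 0.128, limma). In both genes the groups did not overlap, as in 55.0% of all genes tested. Itga2b, the alpha IIb subunit of platelets, was at 2.08 and 1.85 FPKM in KO libraries, against 2.61 and 2.29 FPKM in WT libraries. Platelet and megakaryocyte genes summed to 33.4 and 26.0 FPKM in KO libraries, against 25.7 and 20.3 FPKM in WT libraries. Of the 2 platelet genes tested, Pf4 was called higher, and Gp1bb was at 8.09 and 5.7 FPKM in KO libraries, against 12.43 and 10.05 FPKM in WT libraries (adjusted p = 0.126, limma). Itga4, a receptor for VCAM1 and fibronectin, was at 3.27 and 4.18 FPKM in KO libraries, against 2.02 and 2.75 FPKM in WT libraries (log2 difference 0.48 ± 0.16, adjusted p = 0.177, limma), and Cerkl on the other strand overlaps 8.04% of its exon bases. The log2 difference of Itga9, a tenascin and VCAM1 receptor gene, was 0.01 ± 0.10, and it was -0.05 after median-of-ratios rescaling.

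The 5 leukocyte alpha genes were low. Itgam, the subunit of macrophages and granulocytes, was at 1.93 and 2.2 FPKM in KO libraries, against 1.98 and 1.78 FPKM in WT libraries, but Gm49368 on the same strand shares 68.7% of its exon bases. Itgal, the subunit of lymphocytes and other leukocytes, was at 0.81 and 0.93 FPKM in KO libraries, against 0.64 and 0.75 FPKM in WT libraries. Itgae, Itgax and Itgad, subunits of lymphocyte and myeloid subsets, did not exceed 0.16 FPKM in any library and were not tested, and Itgad was listed at 0 in KO replicate 3 and WT replicate 3. Macrophage genes summed to 266.5 and 273.8 FPKM in KO libraries, against 218.3 and 207.8 FPKM in WT libraries, with 1 of 12 called, higher. All 12 had a positive log2 difference, and 8 had an unadjusted p under 0.05 (limma), where 22.0% of all genes did. Granulocyte and monocyte genes summed to 14.6 and 15.5 FPKM in KO libraries, against 38.0 and 26.1 FPKM in WT libraries, with 1 of 8 tested called, lower. Mmp9 alone was at 7.76 and 7.45 FPKM in KO libraries, against 22.42 and 6.75 FPKM in WT libraries. Genes of B and T lymphocytes summed to 7.7 and 8.9 FPKM in KO libraries, against 6.7 and 8.8 FPKM in WT libraries.

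**Figure D4:**
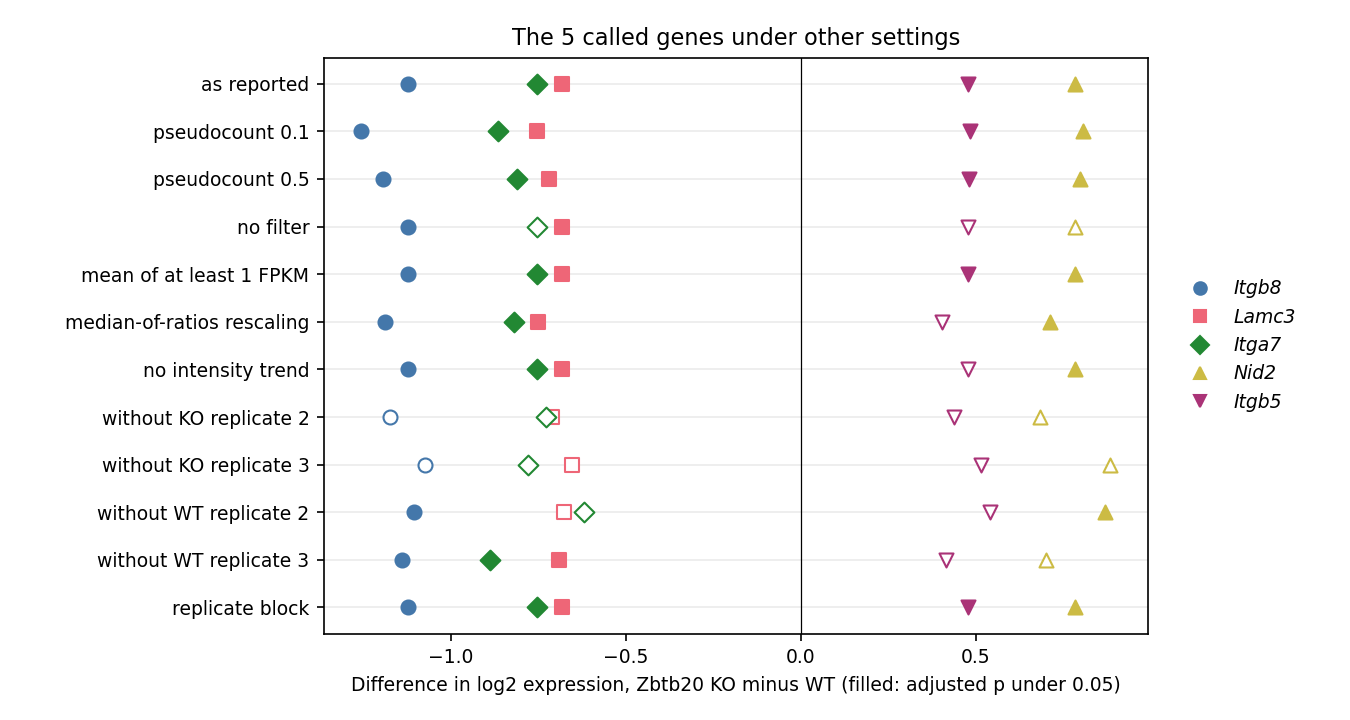
Difference in log2 expression, KO minus WT, of the 5 called genes as reported and under each of 11 other settings, filled where the adjusted p was under 0.05. Each gene keeps its sign throughout, which outside the rescaling was fixed in advance and is no evidence for the calls. No point is filled without KO replicate 2 or without KO replicate 3.

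Among other basement membrane proteins and laminin receptors at the cell surface, 8 of 24 tested genes were called, 2 higher and 6 lower, beside the 4.43% of all genes. Hspg2, which encodes the heparan sulfate proteoglycan perlecan, fell to 25.03 and 26.5 FPKM in KO libraries, against 39.92 and 38.43 FPKM in WT libraries (adjusted p = 0.0197, limma). Col4a3, a collagen IV chain gene, fell to 38.43 and 45.22 FPKM in KO libraries, against 70.47 and 80.86 FPKM in WT libraries (adjusted p = 0.0241). Utrn, which encodes utrophin, a cytoskeletal partner of the laminin receptor dystroglycan, fell to 7.67 and 9.05 FPKM in KO libraries, against 14.07 and 17.86 FPKM in WT libraries (adjusted p = 0.0412). Fras1, an extracellular matrix gene of epithelial basement membranes, rose to 2.87 and 3.1 FPKM in KO libraries, against 1.04 and 1.17 FPKM in WT libraries (adjusted p = 0.0205). The median log2 difference of the list was 0.00, and 3 of its genes were called without WT replicate 2 and 2 without WT replicate 3.

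Of 31 tested genes of integrin activation and focal adhesion, which link integrins to actin, 1 was called higher and 0 lower, and 6 had an unadjusted p under 0.05, where 4.43% and 22.0% of all genes did. The called gene was Tns3, which encodes the adaptor tensin 3, at 32.75 and 32.69 FPKM in KO libraries, against 20.35 and 20.92 FPKM in WT libraries (log2 difference 0.64 ± 0.07, adjusted p = 0.0134, limma). Of 24 tested integrin ligands other than laminins and collagens, 1 was called higher and 2 lower, where 2.38% and 2.04% of all genes were. Vtn, the gene of vitronectin, which alpha v with beta 5 binds, fell to 9.47 and 9.9 FPKM in KO libraries, against 15.02 and 14.66 FPKM in WT libraries (adjusted p = 0.0262). Spp1, the gene of osteopontin, an RGD ligand, rose to 223.52 and 230.14 FPKM in KO libraries, against 156.47 and 129.35 FPKM in WT libraries (adjusted p = 0.0365). Vcam1, the gene of a ligand of Itga4 and Itga9, fell to 26.85 and 28.1 FPKM in KO libraries, against 36.89 and 36.12 FPKM in WT libraries (adjusted p = 0.0460). Of these ligands 1 was called without WT replicate 2 and 2 without WT replicate 3, and 0 genes of the 3 lists were called without KO replicate 2 or KO replicate 3. The median log2 difference was 0.06 for the focal adhesion list and 0.11 for the ligand list, against 0.06 for all genes.

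**Figure D5:**
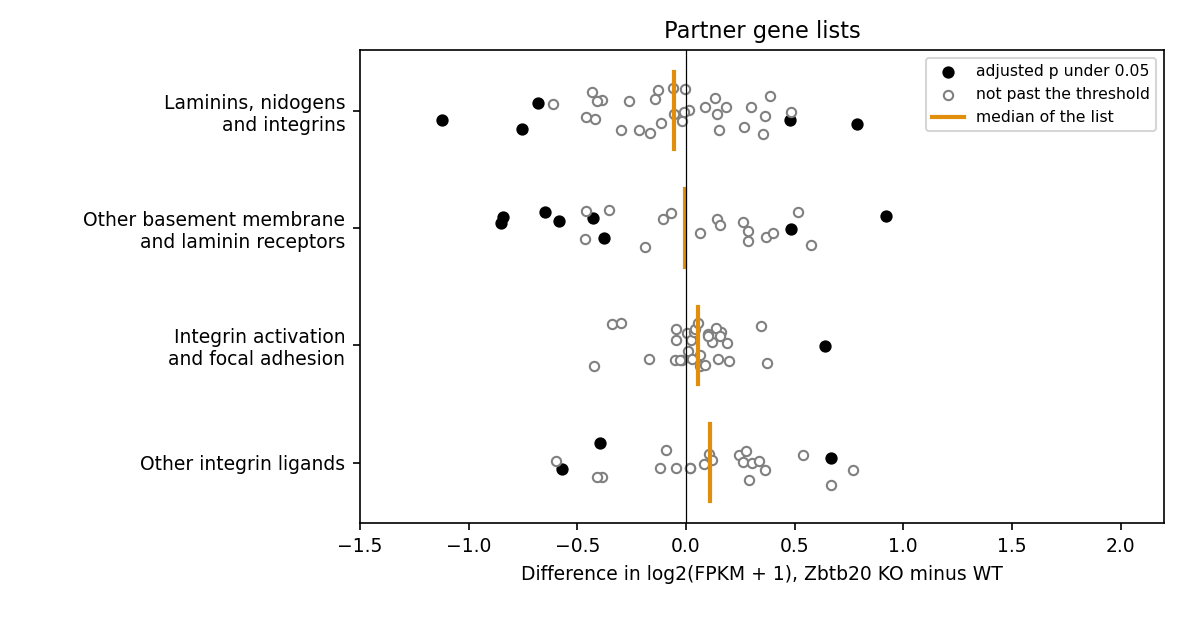
Difference in log2(FPKM + 1), KO minus WT, for each tested gene of the laminins, nidogens and integrins and of 3 lists of partner genes; height within a row is jitter. Filled points passed the adjusted p threshold of 0.05, and orange bars are the medians, from -0.05 for the laminins, nidogens and integrins to 0.11 for the ligands.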

How the data were processed

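Gene expression was measured in 4 cochlear RNA libraries, 2 Zbtb20 KO and 2 WT, grouped by sample title. The FPKM values (fragments scaled by transcript length and library total), given to 2 decimals, are the authors' own, per the file headers; HISAT2 2.0.4, Bowtie2 2.2.5, RSEM 1.2.12 and mm10 are named without roles, per the submitters' processing notes. No source used here says whether strand was used in counting. A repeated column of WT replicate 2 in each table (4 columns) was not used. Of 20777 rows 17816 held values, and the 13966 genes that averaged 0.5 FPKM or more entered limma 3.58.1 in R 4.3.3 on log2(FPKM + 1), with genotype as the 1 term, an intensity trend and Benjamini-Hochberg adjustment. Adding 1 shrinks the change of genes at low levels. Exon bases shared between genes were counted in GENCODE vM21 (GRCm38, the assembly of mm10). Depth was sought as the number of fragments that made most low values of single-transcript genes whole within 0.15 (65.4% to 68.5% came out whole, 30% by chance), too few to treat as counts. The fit was also run on simulated data, with noise drawn independently for each library. That leaves out the deviation shared by same-numbered libraries here (r = 0.40), so the run is no evidence for the calls. Members, partner lists and marker lists were chosen with earlier results of these data known. All members are named but 1, which is not reported here, and of each partner list the called genes, up to the 4 with the smallest p. Alternatives were pseudocounts of 0.1 and 0.5, no filter, a filter at 1 FPKM, median-of-ratios rescaling, no intensity trend, each library left out, and a replicate block.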

Additional observations from a re-analysis of the deposited data

How the results depend on the processing

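The 5 called genes kept their sign under all 11 alternatives, with log2 differences from -1.25 to -1.07 for Itgb8, -0.75 to -0.65 for Lamc3, -0.89 to -0.62 for Itga7, 0.69 to 0.88 for Nid2 and 0.40 to 0.54 for Itgb5. Both KO libraries lay beyond both WT libraries in each of them, so leaving a library out or changing the pseudocount could not change the sign. The filters, the intensity trend and the replicate block leave the log2 difference as it was. The kept sign is therefore no evidence for the calls. With 1 library left out, where the lone library of a genotype is assumed to vary like the other pair, calls among all genes ran from 1 to 545, members called higher from 0 to 1, members called lower from 0 to 4, laminins and nidogens from 0 to 1, integrin alpha genes from 0 to 1, integrin beta genes from 0 to 2, other basement membrane genes from 0 to 3, focal adhesion genes from 0 to 1 and other integrin ligands from 0 to 2. Without the filter on low values, which adds genes to the adjustment, 266 genes were called, with 0 members higher, 1 laminin or nidogen, 0 integrin alpha genes, 1 integrin beta gene, 2 other basement membrane genes and 0 ligands. Median-of-ratios rescaling left 1 member higher and 1 integrin beta gene. This rescaling moved the median log2 difference of all genes from 0.0641 to -0.0006, and the log2 difference of Itgb5 from 0.48 to 0.40. Without the intensity trend there were 1 member higher, 1 integrin beta gene and 3 other basement membrane genes. The cause of the changes under these last 2 settings was not tested.

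Same-numbered libraries deviated together from their group means (r = 0.40 across 13966 genes), but the labels tie a number to no animal, litter or day, only to the name of the cre driver. With the replicate number as a replicate block, 2353 genes were called (16.8% of those tested), among them 7 members higher and 8 lower, which include the 5 reported ones. The members called with the block and not without it were Lama2, Lama4, Lamb3, Lamc1, Itga4, Itga5, Itga6, Itga8, Itga11 and Itgb3. The members called comprised 6 laminins and nidogens, 6 integrin alpha genes and 3 integrin beta genes. Beside these members there were 14 other basement membrane genes, 6 focal adhesion genes and 9 ligands.

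Members near 0 changed sign with 1 library left out, without being called: Itga9 ran from -0.072 to 0.098, Itgb1 from -0.053 to 0.040, Itgb2 from -0.046 to 0.0115, Itga3 from -0.1345 to 0.028, Itgb7 from -0.20 to 0.081, Itgav from -0.29 to 0.0004 and Lama5 from -0.131 to 0.12. Itga9 was also at -0.052 after rescaling. No counts are given, so the counting error of members under 1 FPKM was not computed. Rounding to 2 decimals is coarse for those near 0.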
